A study of Danio rerio with 9 samples.

Results

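The transcripts described here were present in all 3 libraries of oligodendrocyte lineage cells and low or undetected in every library of Schwann cells and neurons from the same stage of zebrafish. Levels are CPM, the estimated count of a transcript divided by the total of its library and multiplied by 1000000. A transcript was a member if it had at least 20 CPM in all 3 oligodendrocyte lineage libraries and under 10 CPM in all 6 others. Of 52216 transcripts, 55 met these limits, and all 55 are members. They were ranked by log2(lowest oligodendrocyte lineage CPM + 1) minus log2(highest other CPM + 1). These values chose the members, so the gap between the oligodendrocyte lineage and the other populations is given as a description. Calls made in those comparisons, listed near the end, have their direction set by the choice and support nothing.

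All groups came from trunks of 72 hours post fertilization embryos of the AB* strain, the front part having been removed before the tissue was dissociated. Cells of the oligodendrocyte lineage were olig2+/sox10+ and came from Tg(olig2:dsred);Tg(sox10:megfp) fish. Schwann cells were foxd3+/sox10+ and came from Gt(foxd3:mCherry);Tg(sox10:mEGFP) fish, which carry a gene trap at foxd3, and neurons were nbt+ cells of Tg(nbt:dsred) fish. Each group had 3 libraries, made from 1750 ± 750 cells each, with totals of 11869510 to 15266878 estimated counts in the oligodendrocyte lineage, 7123251 to 11191844 in Schwann cells and 11439759 to 17126213 in neurons. Each population came from fish with a different set of reporters, so population and fish line cannot be told apart. The labels do not say whether replicates were independent clutches or sorts. The p-values below therefore rest on a spread that may be purely technical.

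Oligodendrocytes wrap axons of the brain and spinal cord in myelin, and Schwann cells do so in peripheral nerves. In the trunk, the oligodendrocyte lineage arises from ventral spinal cord precursors that express olig2, a transcription factor gene also used by the motor neuron lineage. The sox10 gene encodes a transcription factor of the oligodendrocyte lineage and of neural crest derivatives, Schwann cells among them. The gate therefore needed both reporters. It takes precursors and more mature cells of the lineage together, and it cannot remove cells of another kind that carry both reporters.

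The files list transcript IDs and do not pair them with gene names. Of the IDs, 0 matched in a table of 29201 zebrafish genes and 0 in a RefSeq table of 49597 genes. Gene names, roles, sequences and marker genes of oligodendrocytes, Schwann cells or neurons are therefore not analysed here, and the cell type of the sorted populations rests on the labels. The IDs of the 2 highest-ranked members are given, and the others are called by their rank.

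The first-ranked member was ENSDART00000155094.2, a transcript of 772 bases. Its level was 336, 314 and 234 CPM in oligodendrocyte lineage replicates 1, 2 and 3, and it had no counts in any of the 6 other libraries. The mean of 294 ± 53.5 CPM (SD, n = 3) was at least 2631-fold higher than in Schwann cells and at least 4141-fold higher than in neurons, against a floor of 3 counts summed over each group. These floors cover counting error only, because amplified libraries without molecular identifiers hold PCR copies.

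The second-ranked member was ENSDART00000154542.2, of 1895 bases. Its level was 147, 385 and 394 CPM in the same order, so replicate 1 was the lowest library. It too had no counts elsewhere, where an estimated count that rounds to 0 is taken as none. Its mean of 309 ± 140 CPM (SD, n = 3) was at least 2758-fold higher than in Schwann cells and at least 4341-fold higher than in neurons, against the same floor.

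Members without counts in all 6 other libraries numbered 7 of 55, those at ranks 1, 2, 7, 8, 9, 11 and 13. Below the leading pair, their mean oligodendrocyte lineage levels ran from 29.2 ± 11.3 CPM at rank 13 to 93.8 ± 70.2 CPM at rank 11 (SD, n = 3 each). The member at rank 9 was at 60.2, 59.4 and 42.1 CPM, while the member at rank 11 was at 35.5, 74.1 and 172 CPM. A lack of counts elsewhere thus went with both steady and unsteady levels in the oligodendrocyte lineage.

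The most abundant member was at rank 4, with 387, 893 and 1618 CPM in oligodendrocyte lineage replicates 1, 2 and 3. In Schwann cells it was at 0.337, 0.281 and 0.179 CPM, and in neurons at 2.75 CPM in replicate 1 with no counts in replicates 2 and 3. The lowest oligodendrocyte lineage library was far above the highest other library, although the 3 libraries of the lineage were themselves 4.19-fold apart. Rank 5 was the steadiest of the 55, at 108, 124 and 111 CPM, with at most 0.347 CPM elsewhere.

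Only 4 members had counts in every one of the other 6 libraries, those at ranks 10, 20, 28 and 32. Rank 10 was measured at 144, 342 and 246 CPM in the oligodendrocyte lineage libraries, at 1.24, 2.84 and 0.92 CPM in those of Schwann cells, and at 2.52, 0.903 and 2.27 CPM in those of neurons. Its mean was 147-fold the mean of Schwann cells and 129-fold that of neurons. Rank 28 had the smallest ratios of means of these 4, 11.4 to Schwann cells and 21.9 to neurons, at 58.3, 59.9 and 74.4 CPM. Its Schwann cell libraries were at 4.91, 8.72 and 3.32 CPM and its neuron libraries at 3.66, 2.47 and 2.67 CPM. By the lowest lineage library over the highest other library, rank 32 was the closest, at 5.41-fold. For such transcripts the data show a low level elsewhere, not an absence.

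**Figure D1:**
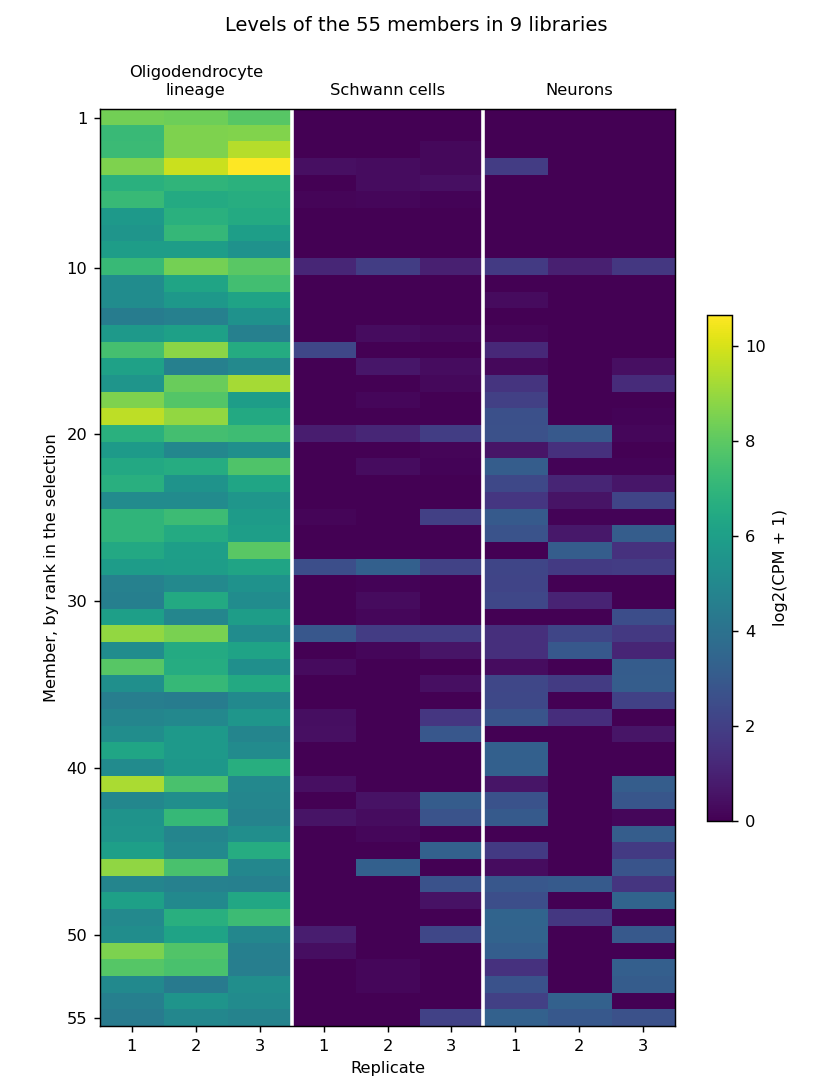
Level of each of the 55 members, as log2(CPM + 1), in the 9 libraries. Rows are members by rank and columns are replicates 1 to 3 of each population. The 7 members without counts elsewhere lie among the first 13 ranks, and faint levels in neuron and Schwann cell libraries become more common toward rank 55. The rank uses the highest level elsewhere, so both are largely set by the order of the rows.

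Of the 55 members, 13 stayed under 1 CPM in all 6 other libraries, 12 peaked at 1 to under 5 CPM and 30 at 5 to under 10 CPM. The description "on only in the oligodendrocyte lineage" thus held, by the reads assigned to the transcript ID, for the 7 members without counts elsewhere. For the others it rested on the 10 CPM limit. Except at rank 11, the lineage counts of these 7 were not whole numbers, as arises when reads are divided between transcripts that share sequence. Their 0 counts elsewhere therefore do not show that the sequence or the gene was silent there. In bulk samples, fewer cells of a type and less RNA per cell cannot be told apart. Oligodendrocyte lineage levels averaged from 25.1 to 966 CPM over the members, with a median of 74.8 CPM. A mean of at least 100 CPM was reached by 21 members, and 17 were under 50 CPM. The members together took 0.720%, 0.769% and 0.705% of the counts in oligodendrocyte lineage replicates 1, 2 and 3.

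The limits cut through a continuous range of levels. The member closest to the lower limit had 20.2 CPM in its lowest oligodendrocyte lineage library, and the nearest transcript left out had 19.7 CPM. The member closest to the upper limit reached 9.89 CPM in neurons replicate 3, and the nearest transcript left out reached 10.1 CPM. The last member, at rank 55, was at 20.7, 30.0 and 25.9 CPM in the 3 lineage libraries and reached 8.93 CPM in neurons replicate 1. A total of 151 transcripts with at least 20 CPM in all 3 oligodendrocyte lineage libraries were left out by the 10 CPM limit although their score exceeded that of the last member.

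The largest score of these, 7.88, belonged to a transcript singled out after its values were seen. It was at 2832, 4266 and 3920 CPM in oligodendrocyte lineage replicates 1, 2 and 3, above every member, and at 1.06, 0.702 and 0.804 CPM in Schwann cells. In neurons it was at 3.80 CPM in replicate 1, had no counts in replicate 2 and was at 11.0 CPM in replicate 3. The last value alone kept it out, and its score would have placed it at rank 1.

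**Figure D2:**
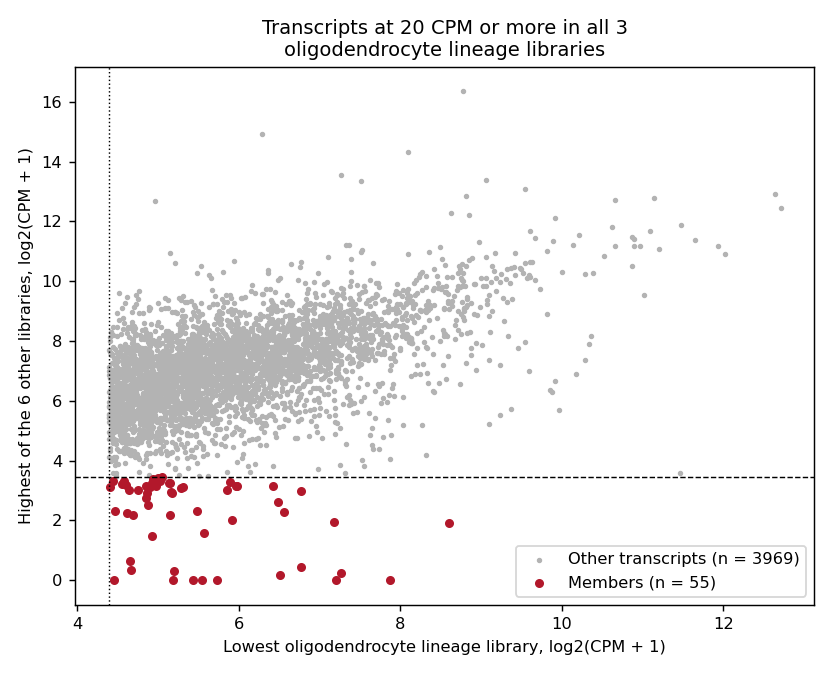
Lowest oligodendrocyte lineage library against the highest of the 6 other libraries, both as log2(CPM + 1), for the 4024 transcripts with at least 20 CPM in all 3 oligodendrocyte lineage libraries. The dotted and dashed lines are the 20 and 10 CPM limits. The 55 members lie below the dashed line, and the left-out transcript at 2832 CPM or more lies just above it at the right.

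Transcripts within the limits were a small part of those at 20 CPM or more in the oligodendrocyte lineage, a share that depends on where the limits are set. Of the 4024 transcripts with at least 20 CPM in all 3 oligodendrocyte lineage libraries, 354 were under 10 CPM in all Schwann cell libraries and 122 in all neuron libraries. The 55 members made up 1.37% of the 4024. The same limits with another population as the high group gave 33 transcripts for Schwann cells, 1.25% of 2647, and 219 for neurons, 4.11% of 5331. These are counts of single sets of 3 libraries, and their difference was not tested.

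Because all 9 libraries chose the members, each library was next left out of the choice and then read. The 55 members are within every such choice and hold in the left-out library by definition. The shares below therefore describe how the choice carried over to a library and do not test the members. Without oligodendrocyte lineage replicate 1, the limits picked 101 transcripts, and 54.5% of them had at least 20 CPM in that library. Without replicate 2 they picked 85, and 64.7% reached 20 CPM in it. Without replicate 3 they picked 145, of which 37.9% reached 20 CPM in it and 24.1% had no counts there. Each shortfall was larger than among transcripts in general. Of all transcripts with at least 20 CPM in the other 2 oligodendrocyte lineage libraries, 82.5% of 4880, 85.1% of 4728 and 66.8% of 6027 reached 20 CPM in replicates 1, 2 and 3.

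The picked transcripts were also lower. Their median level in the 2 libraries that chose them was 51.1, 51.1 and 54.2 CPM, against 83.5, 82.6 and 72.3 CPM for the transcripts in general. The part of level in the shortfall was not tested. Replicate 3 was the library in which the most picked transcripts fell under 20 CPM, 90 of 145, 35 of them without counts. For replicate 1 it was 46 of 101 and for replicate 2 it was 30 of 85.

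The limit of 10 CPM was read in the same way. Without Schwann cells replicate 1 or 2, the limits picked 60 transcripts each time, and 91.7% stayed under 10 CPM in the library left out. Without Schwann cells replicate 3 they picked 77, and 71.4% stayed under 10 CPM in it, while 14 were at 20 CPM or more. Without neurons replicates 1, 2 and 3 they picked 76, 74 and 72, of which 72.4%, 74.3% and 76.4% stayed under 10 CPM. Of the 4024 transcripts at 20 CPM or more in the oligodendrocyte lineage, 14.8% to 41.0% were under 10 CPM in a Schwann cell library and 8.35% to 15.1% in a neuron library. These 4024 did not have to be low in any Schwann cell or neuron library. The picked transcripts had to be under 10 CPM in all such libraries that chose them. The shares are thus of unlike sets, and their difference was not tested.

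**Figure D3:**
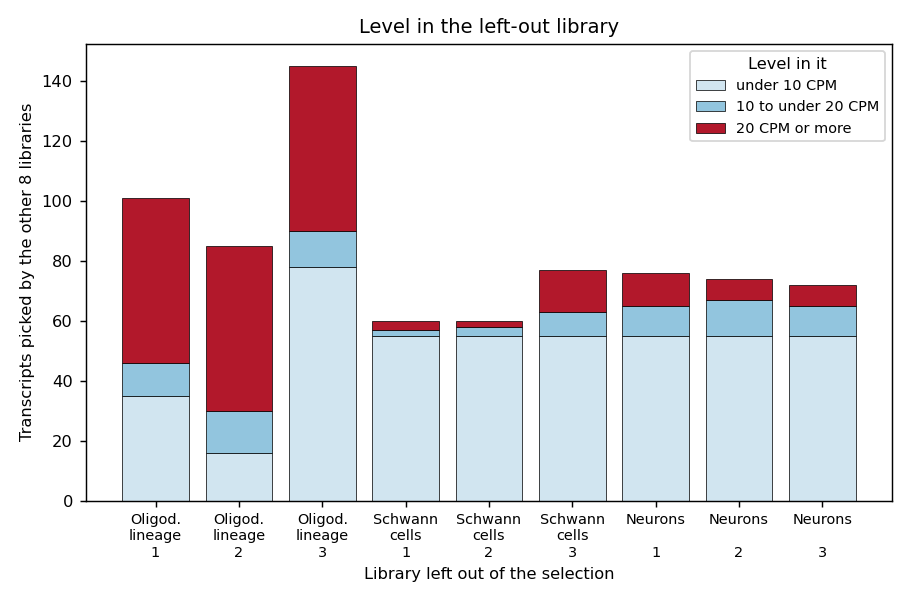
Number of transcripts picked by 8 libraries, split by their level in the library left out of the choice. The 55 members are the transcripts at 20 CPM or more in the first 3 bars and those under 10 CPM in the other 6. The bar for oligodendrocyte lineage replicate 3 is the tallest, at 145, with 78 transcripts under 10 CPM in that library.

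Members varied widely among the 3 oligodendrocyte lineage libraries. The ratio of the highest to the lowest library had a median of 2.51 over the 55 members and ran from 1.15 at rank 5 to 20.9 at rank 41. Over the 3969 other transcripts with at least 20 CPM in all 3 libraries the median was 2.17. A ratio of at least 5 was found for 11 members, 20% of them, and for 323 of the others, 8.14%. The members were also lower, with a median level of 74.8 CPM against 94.4 CPM. Fewer of them had whole-number counts in all libraries, 7.27% against 23.2%. The part of either in the wider spread was not tested. The first 10 ranks held none of the 11, but the rank uses the lowest lineage library, so 1 low library itself moves a member down.

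In 9 of these 11 members replicate 3 was the lowest library, and in the other 2, at ranks 17 and 49, replicate 1 was. Among the 323 other transcripts with such a ratio, replicate 3 was lowest in 38.4% and replicate 1 in 40.6%. The 9 members were at ranks 18, 19, 32, 34, 41, 43, 46, 51 and 52. Rank 41 was at 637, 192 and 30.4 CPM in replicates 1, 2 and 3. Rank 19, a transcript of 6323 bases, was at 775, 492 and 88.8 CPM, and rank 46 was at 471, 191 and 29.5 CPM. Replicate 3 was thus the lowest for ranks 41, 19 and 46, by a factor of 8.73 to 20.9 against the highest. Over the 9 members the factor ran from 5.32 at rank 43 to 20.9 at rank 41.

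In sum, the 9 members stood at 3639, 2104 and 353 CPM in replicates 1, 2 and 3, which was 50.6%, 27.4% and 5.01% of the summed level of all members. The other 46 members summed to 3557, 5590 and 6701 CPM, sums in which ranks 3, 4 and 17 weigh heavily. Rank 3 was at 153, 387 and 707 CPM and rank 4 at 387, 893 and 1618 CPM. Rank 17 was at 46.4, 300 and 591 CPM, a spread opposite to that of the 9. The sums therefore do not show that the 46 as a class rose toward replicate 3. The 9 were grouped after their values were seen, and no test was made. The total of all members hid this difference, since it was 7314 ± 336 CPM (SD, n = 3).

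**Figure D4:**
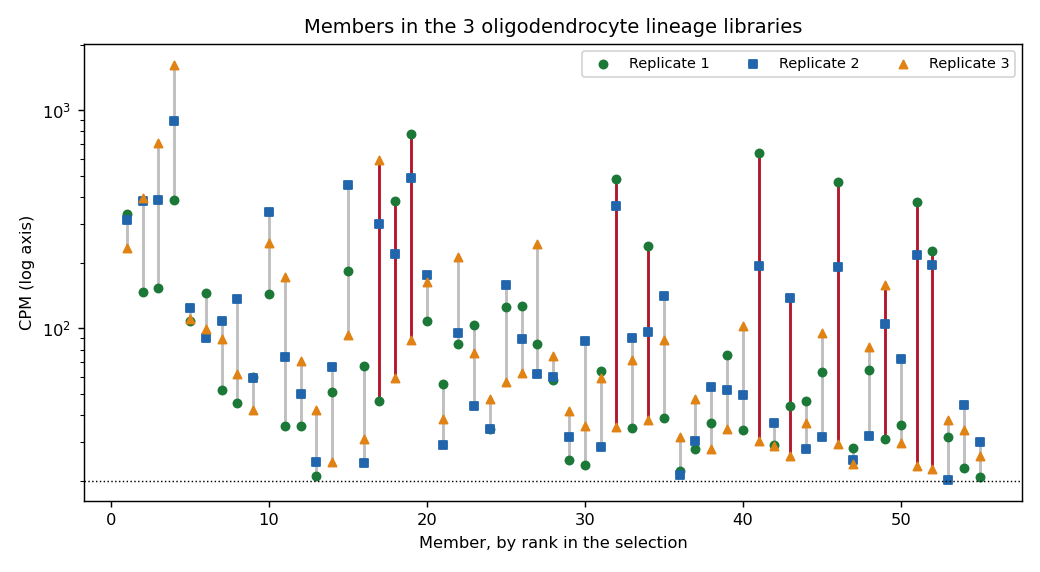
Level of each member in the 3 oligodendrocyte lineage libraries, in CPM on a log axis, by rank. Vertical lines join the lowest and highest library and are red for the 11 members with a ratio of at least 5. Replicate 3 (triangles) is at the foot of 9 of the 11 red lines, and the dotted line marks 20 CPM.

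The selection did not set Schwann cells against neurons, but it capped every one of their libraries under 10 CPM. Differences of 10 CPM or more between them could therefore not appear among members, while ratios between them were not capped. The members summed to 20.8, 27.7 and 59.3 CPM in Schwann cells replicates 1, 2 and 3, and to 170, 63.3 and 119 CPM in neurons replicates 1, 2 and 3. The groups did not overlap, but the margin was narrow, between 63.3 CPM in neurons replicate 2 and 59.3 CPM in Schwann cells replicate 3. The same sum was not computed for other transcripts under 10 CPM in these libraries, so the order is not particular to the members. No counts were found for 72.7%, 63.6% and 54.5% of members in Schwann cells replicates 1, 2 and 3, beside 55.9%, 58.4% and 41.6% of all transcripts with a count in any library. In neurons replicates 1, 2 and 3 the shares were 25.5%, 65.5% and 43.6% of members, beside 26.2%, 39.5% and 36.2%. Neurons replicate 1, the deepest library, held counts for the most members, at about its rate over all transcripts. Of the 3969 other transcripts at 20 CPM or more in the oligodendrocyte lineage, 0.957% had no counts in that library. Unlike the members, neither of these sets was held under 10 CPM.

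Across members, the mean was higher in neurons for 37 and higher in Schwann cells for 11, with 7 at no counts in both. That is 77.1% of the 48 with counts, beside 67.0% of the 15803 transcripts of any kind that had counts in these 6 libraries and stayed under 10 CPM in all. The highest of the 6 values lay in a neuron library for 35 members, in neurons replicate 1 for 19 of them, and in a Schwann cell library for 13. The member at rank 26 had no counts in Schwann cells and was at 5.71, 0.620 and 7.95 CPM in neurons. Rank 28 had the reverse order of means, 5.65 ± 2.78 CPM for Schwann cells against 2.93 ± 0.638 CPM for neurons (SD, n = 3 each), and the libraries of both groups overlapped.

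**Figure D5:**
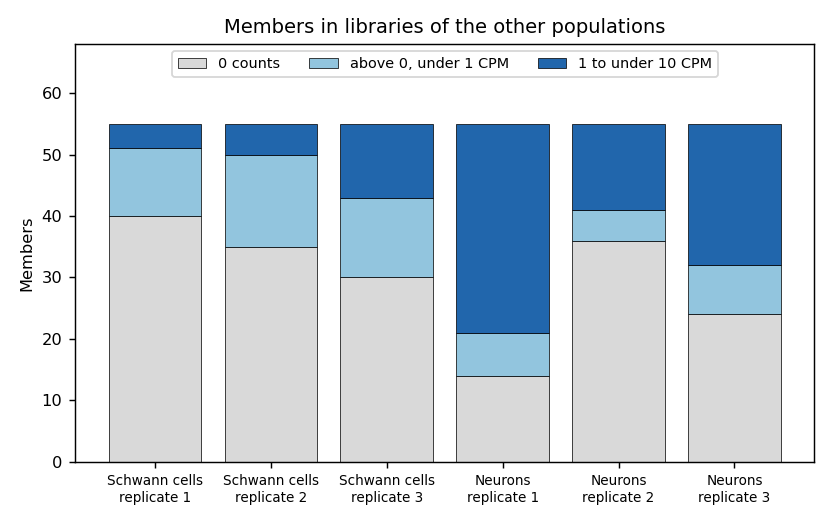
Number of members, of 55, with no counts, with counts but under 1 CPM, and with 1 to under 10 CPM in each Schwann cell and neuron library. Neurons replicate 1 has 34 members at 1 CPM or more, and Schwann cells replicate 1 has 4.

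In edgeR's quasi-likelihood test over 23408 transcripts, all 55 members were tested and 0 were called between Schwann cells and neurons at a Benjamini-Hochberg adjusted p under 0.05. Of all transcripts tested, 0.299% were called lower in Schwann cells and 0.0555% higher. Of the 5044 transcripts under the same limit of 10 CPM in all 6 libraries, 0 were called, or 0%, so the 0 among members says nothing about them in particular. The lowest adjusted p of a member was 0.101, at rank 26. The median log2 fold change, Schwann cells over neurons, was -2.92 for members and -0.314 for all transcripts tested. Without neurons replicate 1 it was -0.101 and -0.185. Ratios of members at 0 in a group have no measured size, and 19 members had no counts in all 3 Schwann cell libraries. At an unadjusted p under 0.05, 17 members were lower in Schwann cells and 2 higher. The shares were 13.3% and 2.7% of all transcripts, and 14.5% and 1.01% of the 5044. DESeq2 called 11 of 52 members with an adjusted p, all 11 lower in Schwann cells, beside 7.22% of 4739 transcripts under the limit, 11.8% of all transcripts in that direction and 2.85% in the other. Limma voom called 0, beside 5.97% and 1.2% of all. All neuron libraries exceeded all Schwann cell libraries for 6 members, beside 16.3% of the 5044 and 17.4% of all transcripts. The reverse held for 1 member, at rank 6 with 1 count in each Schwann cell library, beside 2.18% and 7.39%. The transcripts under the limit were set beside the members after the results were seen.

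The comparisons that chose the members are given for completeness, and nothing is read from them. The limits of 20 and 10 CPM fix the direction of every difference and tilt the tests toward calls. Against Schwann cells, edgeR called 5 of the 55 members higher in the oligodendrocyte lineage, at ranks 1, 2, 3, 6 and 10, where 0.568% of all transcripts were called in that direction. Against neurons it called 0, where 0.0342% of all transcripts were, with 37 members at an unadjusted p under 0.05 beside 2.73%. DESeq2 called 49 and 31 of the 52 members with an adjusted p, beside 9.71% and 2.04% of all transcripts, and voom called 22 and 44 of 55, beside 1.34% and 2.07%. The number of calls thus depended on the tool. Over all transcripts, edgeR called 186 in either direction against Schwann cells. On leaving out a library, the 5 calls among members became 0 without Schwann cells replicate 1, beside 57 over all transcripts. They also became 0 without oligodendrocyte lineage replicate 2 or 3, beside 1 and 23. Without neurons replicate 2 or 3 they became 0 as well, beside 14 and 13. The 5 calls became 1 without oligodendrocyte lineage replicate 1 or neurons replicate 1, beside 122 and 13 over all transcripts. They became 2 without Schwann cells replicate 2, beside 130, and stayed at 5 without Schwann cells replicate 3, beside 504. Against neurons, 5 members were called without Schwann cells replicate 2, beside 65 over all transcripts in place of 20.

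At the median, the members were shorter than other transcripts of these cells, a difference given without a test. Only the members had to stay under 10 CPM elsewhere, and CPM is not corrected for length. At the same number of molecules, a short transcript stays under that limit more easily. The part of the limit in the difference was not tested, and the length of transcripts chosen by TPM was not computed. Their median length was 2087 bases, with quartiles of 1548 and 3189 and a range from 670 bases at rank 14 to 7376 bases at rank 20. The 3969 other transcripts at 20 CPM or more in the oligodendrocyte lineage had a median of 2699 bases and quartiles of 1850 and 4220. CPM counts longer transcripts more, so levels were also set per length as TPM, the count per effective length scaled to a common total. On that scale the members at ranks 4 and 1 were the highest, at 1529 ± 927 and 1262 ± 265 TPM in the oligodendrocyte lineage (SD, n = 3 each). Their spreads overlapped, so the order of these 2 is not settled. The next were ranks 6 and 3, at 426 ± 112 and 426 ± 270 TPM. Rank 19, second by CPM at 452 ± 345 CPM, was at 138 ± 105 TPM.

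Most members carried estimated counts that were not whole numbers, as arises when reads are divided between transcripts that share sequence. Whole numbers in all 9 libraries, within a tolerance of 1e-06, were found for 4 members, at ranks 3, 11, 34 and 48, or 7.27%. Of the 3969 other transcripts at 20 CPM or more in the oligodendrocyte lineage, 23.2% held whole numbers throughout. In the 3 oligodendrocyte lineage libraries alone the shares were 12.7% and 28.6%. A member at 0 in another population means that this transcript ID was assigned no reads there. Whether other transcripts of the same gene did was not tested.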

How the data were processed

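Sorted cells went through RNeasy Micro purification and SMART-Seq v4 amplification, per the labels' protocols. Per the file headers, each deposited file gives an estimated count, a length and an effective length in bases for each transcript ID. Named without roles in the submitters' processing notes are Bowtie2 2.1.0, RSEM 1.2.15, Trimmomatic, FastQC and the build danRer10. Which program wrote the estimated counts is not given in the sources used here.

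CPM used the total of each file without further scaling, and TPM used effective lengths. After rounding of the estimated counts, edgeR 4.0.16 (R 4.3.3) was run with filterByExpr (23408 transcripts kept), TMM factors and a quasi-likelihood model of group over all 9 libraries, with 6 residual degrees of freedom. P-values are two-sided and adjusted by Benjamini-Hochberg over all transcripts tested. The common biological coefficient of variation was 1.58, which limits what 3 libraries per group can show. DESeq2 1.42.0 and limma 3.58.1 were alternatives. Fits without a library kept the same 23408 transcripts. Without gene names, the rule for naming took the IDs of the 2 highest-ranked members. Members and tests were chosen with earlier results of these data known.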

Additional observations from a re-analysis of the deposited data

How the results depend on the processing

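The number of transcripts within the limits stayed at 51 to 79 under TMM or DESeq2 scaling, TPM, thinning to 7123174 counts, or limits of 10 and 5 CPM, but the transcripts were not always the same. The 55 members shared 50 with the TMM-scaled choice, 48 with the DESeq2-scaled choice, 53 with the thinned one, 31 of 79 with the TPM choice and 25 of 51 with limits of 10 and 5 CPM. Limits of 40 and 5 CPM left 14. Under the limits of 20 and 10 CPM, only 4 transcripts had whole-number counts throughout. Without single libraries the number ran from 60 to 145. The median length of the picked transcripts, taken over the first 100 ranks at most, ran from 1899 to 2501 bases. The median effective length of the members was 1732 bases. DESeq2 size factors in edgeR moved the median log2 fold change of all transcripts from 0.20 to 0.01 against Schwann cells. They gave 4 calls among members, beside 156 over all transcripts in place of 186.

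The 5 calls against Schwann cells became 10 without a filter, 1 with only the compared groups, 49 with DESeq2 and 22 with voom, and 0 to 5 without single libraries. The 0 calls against neurons became 4, 7, 31 and 44 under the same settings, and 0 to 5 without single libraries. For Schwann cells against neurons, DESeq2 gave 11 and the other settings 0, leaving out single libraries included. The cause of these changes was not tested. Correlations of deviations from group means ran from -0.0352 to 0.0290 between same-numbered libraries and from -0.0353 to 0.0408 between libraries of unequal number. They gave no sign of pairing by number, but with so few libraries they cannot exclude shared clutches or sorts. The fit with a replicate block called 0 members in each comparison. Over all transcripts it called 2, 0 and 0, in place of 186, 20 and 83. Other counts over all transcripts are given in the order of the comparisons. They were 243, 65 and 144 without a filter, and 7, 175 and 13 with only the compared groups. DESeq2 gave 3414, 2066 and 3153, and voom gave 511, 2130 and 1680. With DESeq2 size factors in edgeR they were 156, 20 and 68. Without single libraries they ran from 1 to 504, from 0 to 65 and from 1 to 278.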
